A study of Mus musculus with 6 samples.

Results

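Expression of 10 genes of the Notch pathway was examined in mouse incisor mesenchyme: the receptors Notch1, Notch2, Notch3 and Notch4, the ligands Jag1, Jag2 and Dll4, and the target genes Hes1, Hey1 and Heyl. They were chosen by gene symbol, and all 10 were found among the 23718 genes of the deposited table and passed the filter on low values that left 15391 genes for testing. RNA was sequenced from regions that a laser had cut out of sections of frozen tissue (laser capture microdissection). One region, named for its mesenchymal stem cells (MSC), came from Gli1-CreER;tdT mice and the other, named for its transit amplifying cells (TAC), which divide and descend from the stem cells, was taken from Axin2-CreER;tdT mice, with 3 samples in each group. Both groups were 1 month old and labelled as strain C57BL/6, although the methods of the study describe a mixed background, and both carried a Cre-dependent red reporter and had received tamoxifen 1 day before collection. The Gli1 or Axin2 promoter drove the Cre, and capture from a section can also take unlabelled neighbours of the marked cells. Each region came from 1 Cre line only, so the effects of line and region cannot be told apart.

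Notch receptors are transmembrane proteins that are activated by ligands on the surface of an adjacent cell. Binding leads to cleavage of the receptor, and the freed intracellular part enters the nucleus, where it joins the DNA-binding protein RBPJ and Mastermind coactivators and switches on genes of the HES and HEY families, which encode transcriptional repressors. In blood vessels Notch1, Notch4 and Dll4 are known from endothelium, while Notch3 and Heyl are known from the mural cells, the pericytes and smooth muscle that surround it.

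Values are normalized read numbers, in which a library's reads were scaled but gene length was not divided out, so they compare libraries and not genes. Values are given in the order of replicates 1, 2 and 3. Estimated reads numbered 20203159 to 25567244 in replicates 1 and 2 of both groups, 59793645 in MSC replicate 3 and 108156380 in TAC replicate 3. Replicate 3 stood apart in both groups: mitochondrial ribosomal RNA took 0.236% and 0.112% of its reads in MSC and TAC, against 8.28% to 9.07% elsewhere, and 43.1% and 28.3% of listed genes had no read in it. Each gene's difference is therefore also given by library set, first for replicates 1 and 2 and then for replicate 3, where it rests on 1 library a group. The genes whose promoters drive Cre did not pass the test in either direction, Gli1 at 256, 245 and 422 in the MSC libraries against 153, 141 and 396 in the TAC libraries (adjusted p 0.718) and Axin2 at 58.3, 47.98 and 12.01 in the MSC libraries against 56.8, 63.9 and 34.1 in the TAC libraries (adjusted p 0.758). Mesenchyme markers such as Prrx1, Pdgfra and Col1a1 were present in all 6 libraries. Genes of the enamel epithelium were present too, with Amelx at 80.6 to 2503 in MSC and 826 to 2209 in TAC, so the captured regions were not free of RNA of that origin. The 10 Notch genes had 197 or more estimated reads in every library, the lowest being Heyl in TAC replicate 3.

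All 4 receptors were lower in each TAC library than in the MSC library with the same number, and Notch3 was the receptor whose difference passed the test across all genes. Notch3 (chr17:32120820-32166880, minus strand, mm10) stood at 110.4, 124 and 86.8 in the MSC libraries against 25.6, 25.5 and 17.5 in the TAC libraries. The lowest MSC value was more than any TAC value, and the TAC libraries lay close together. Means were 107 ± 18.7 for MSC against 22.9 ± 4.67 for TAC (SD, n = 3 each), an MSC to TAC ratio of 4.68. The log2 fold change, TAC minus MSC, was -2.18 (SE 0.29, 95% interval -2.86 to -1.50, limma adjusted p 0.0389), and it was nearly the same in both library sets, -2.15 within replicates 1 and 2 and -2.25 within replicate 3. Notch3 lost its call when MSC replicate 1 or 2 or any TAC replicate was left out (limma adjusted p 0.241, 0.2398, 0.186, 0.1995 and 0.0659), without a variance trend (0.0958) and with replicates 1 and 2 averaged (0.556). The log2 fold change was -2.01 to -2.32 over all alternatives.

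The 250 bases before the RefSeq start of Notch3 are shown because Notch3 is the receptor with the firmest difference. HES proteins bind the N-box (CACNAG), HEY proteins bind E-boxes (CACGTG), RBPJ binds sites with the core TGGGAA, and GGGCGG is the GC box of Sp1-like factors. Each was searched on both strands. The window (chr17:32166891-32167140, GRCm38.p6, minus strand, written 5′ to 3′) held 2 N-boxes, given in capitals, no E-box and no RBPJ core.
Notch3: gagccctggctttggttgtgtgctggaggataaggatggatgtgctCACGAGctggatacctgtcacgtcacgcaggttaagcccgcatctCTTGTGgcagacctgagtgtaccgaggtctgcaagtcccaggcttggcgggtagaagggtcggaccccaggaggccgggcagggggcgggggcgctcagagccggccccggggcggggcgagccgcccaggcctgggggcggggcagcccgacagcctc
It also held 4 GC boxes and 17 CG dinucleotides. RefSeq windows were matched for 7 of the 10 genes, the receptors and the ligands. Of these 7, 4 held an N-box, which 36.7% of all 32851 promoter windows of that length hold, 5 held a GC box, which 32.7% hold, and none held the RBPJ core or the E-box, which 21.6% and 6.02% hold. A match is a description of letters and not a measured binding site. RefSeq starts can also differ from the deposited gene coordinates. By those coordinates the windows of Notch1 and Jag2 lay inside the gene, and those of Jag1, Notch2 and Notch4 partly inside.

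Notch4 (chr17:34564268-34588503, plus strand) stood at 29.2, 29.5 and 62.5 in the MSC libraries against 10.6, 11.6 and 15.1 in the TAC libraries. The groups did not overlap, and replicate 3 was the highest library of each. The fitted difference was -1.54 (log2, SE 0.39, limma unadjusted p 0.00507, adjusted p 0.179), and -1.32 and -1.98 in the library sets. Notch1 (chr2:26457903-26516663, minus strand) stood at 75.3, 82.2 and 29.04 in the MSC libraries against 34.6, 34.4 and 8.95 in the TAC libraries. Replicate 3 was the lowest library in both groups, so MSC replicate 3 fell below TAC replicates 1 and 2 and the groups overlapped. The fitted difference was -1.31 (log2, SE 0.62, 95% interval -2.77 to 0.15, adjusted p 0.4702), and -1.17 and -1.59 in the library sets. Notch2 (chr3:98013527-98150361, plus strand) stood at 196, 204 and 137 in the MSC libraries against 147, 142 and 47.2 in the TAC libraries. The groups overlapped in the same way, through a low replicate 3 in each. The fitted difference, -0.82 (log2, SE 0.48, 95% interval -1.94 to 0.31, adjusted p 0.569), was the smallest in size of the 4 receptors. The library sets gave -0.47 and -1.52. Without TAC replicate 3 the difference was -0.29 for Notch2 and -0.70 for Notch1. With the replicate number as a block, the unadjusted p of Notch1 was 0.00136 and that of Notch2 0.0273, while their adjusted p-values were 0.0598 and 0.188.

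**Figure D1:**
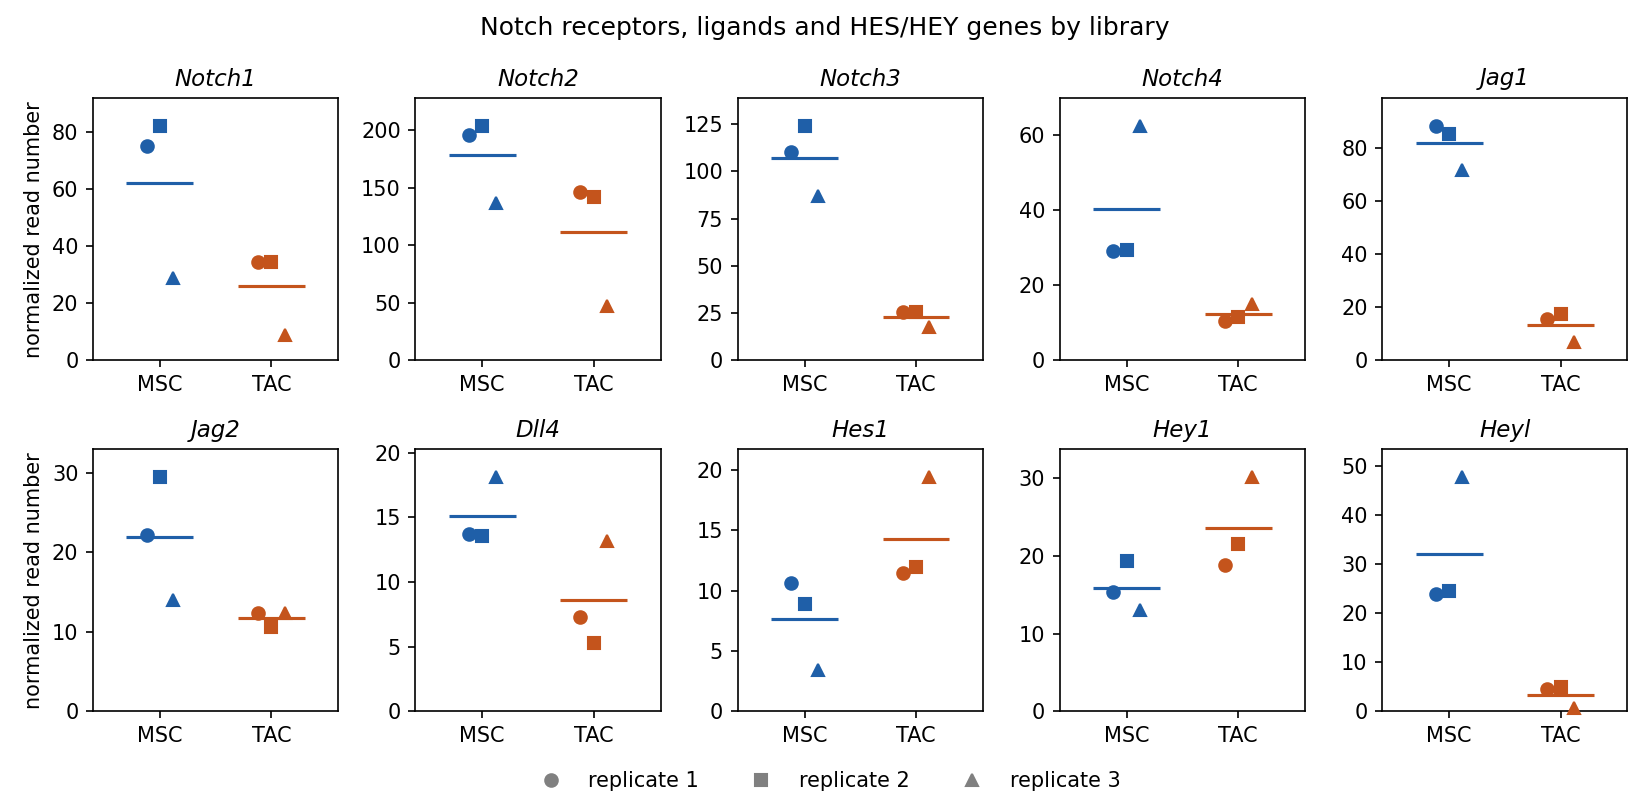
Normalized read number (vertical axis, linear, own scale for each gene) of the 10 Notch genes in the 3 MSC (blue) and 3 TAC (orange) libraries; circles, squares and triangles are replicates 1, 2 and 3 and lines are group means. Notch3, Notch4, Jag1, Jag2, Dll4 and Heyl were higher in every MSC than in every TAC library, Hes1 was higher in every TAC library, and Notch1, Notch2 and Hey1 overlapped.

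Of the 3 ligands Jag1 had the largest difference, and it was the one that passed the test. Jag1 (chr2:137081456-137116644, minus strand) stood at 88.2, 85.4 and 71.7 in the MSC libraries against 15.6, 17.4 and 6.91 in the TAC libraries. The MSC values lay within a narrow range, and each was at least 4 times any TAC value. Means were 81.8 ± 8.82 for MSC against 13.3 ± 5.62 for TAC (SD, n = 3 each), an MSC to TAC ratio of 6.14. Jag1 fell by 2.62 on the log2 scale (SE 0.38, 95% interval -3.52 to -1.72, limma adjusted p 0.0483). The library sets gave -2.33 and -3.20. The adjusted p lay close to the threshold. It was 0.0596 with a pseudocount of 0.5, 0.0512 without the filter, 0.0561 with robust variances, 0.101 without a variance trend and 0.3601 with replicates 1 and 2 averaged. Jag1 also lost its call when replicate 1 or 2 of MSC was left out (adjusted p 0.251 and 0.254) or replicate 1 or 2 of TAC (0.186 and 0.198).

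The window before the RefSeq start of Jag1 (chr2:137116521-137116770, GRCm38.p6, minus strand) is shown as the ligand beside Notch3. It lies partly inside the gene by the coordinates given above. It held none of the motifs searched and so has no capitals.
Jag1: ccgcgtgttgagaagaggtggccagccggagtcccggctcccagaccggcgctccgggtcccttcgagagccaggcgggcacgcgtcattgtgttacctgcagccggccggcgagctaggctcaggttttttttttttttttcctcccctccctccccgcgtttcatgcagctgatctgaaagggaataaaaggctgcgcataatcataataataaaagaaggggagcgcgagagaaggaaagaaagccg
It held 20 CG dinucleotides, against a median of 6 over all windows.

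Jag2 (chr12:112907819-112929776, minus strand) stood at 22.2, 29.5 and 13.998 in the MSC libraries against 12.4, 10.6 and 12.3 in the TAC libraries. The groups did not overlap, but MSC replicate 3 was only slightly above the TAC libraries. The fitted difference of -0.79 (log2, SE 0.37, 95% interval -1.67 to 0.09, adjusted p 0.472) came mostly from replicates 1 and 2, at -1.09, and was -0.17 within replicate 3. Dll4 (chr2:119325784-119335962, plus strand) stood at 13.7, 13.5 and 18.1 in the MSC libraries against 7.31, 5.32 and 13.1 in the TAC libraries. Here the lowest MSC value, in replicate 2, stood just above TAC replicate 3, and replicate 3 was the highest library of both groups. The fitted difference was -0.82 (log2, SE 0.43, 95% interval -1.84 to 0.20, adjusted p 0.523), and -1.01 and -0.43 in the library sets.

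The fitted differences of the 3 target genes did not share a direction, but none passed the adjusted threshold and the genes were not tested against each other. Heyl (chr4:123233556-123249875, plus strand), a HEY family repressor, stood at 23.96, 24.6 and 47.7 in the MSC libraries against 4.55, 4.87 and 0.751 in the TAC libraries. The groups were far apart, and TAC replicate 3 was the lowest library and MSC replicate 3 the highest. Means were 32.1 ± 13.5 for MSC against 3.39 ± 2.29 for TAC (SD, n = 3 each), and the MSC value was 5.26, 5.05 and 63.5 times the TAC value in replicates 1, 2 and 3. The log2 fold change was -3.03 (SE 0.60, 95% interval -4.43 to -1.63), the largest in size of the 10 genes. It was -2.15 within replicates 1 and 2 and -4.80 within replicate 3. The limma unadjusted p was 0.00127 and the adjusted p 0.108.

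Hes1 (chr16:30064384-30067796, plus strand), which encodes the best known HES repressor, lay in the other direction. It stood at 10.6, 8.92 and 3.41 in the MSC libraries against 11.4, 11.99 and 19.4 in the TAC libraries. Every TAC value was above every MSC value, but in replicates 1 and 2 by little, and MSC replicate 3 was low while TAC replicate 3 was high. The fitted difference was 0.90 (log2, SE 0.51, 95% interval -0.29 to 2.09, adjusted p 0.552), with 0.24 within replicates 1 and 2 and 2.21 within replicate 3. Hey1 (chr3:8663359-8667256, minus strand) stood at 15.3, 19.4 and 13.1 in the MSC libraries against 18.9, 21.6 and 30.1 in the TAC libraries. TAC was the higher group in each pair of the same number, and the groups overlapped through MSC replicate 2. For Hey1 the difference was 0.53 (log2, SE 0.33, 95% interval -0.26 to 1.31, adjusted p 0.604), and 0.22 and 1.15 in the library sets. Without MSC replicate 3 the difference of Hes1 was 0.47, and without TAC replicate 3 that of Hey1 was 0.34. The intervals of Hes1 and Hey1 include 0, so the fit did not separate either difference from 0.

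**Figure D2:**
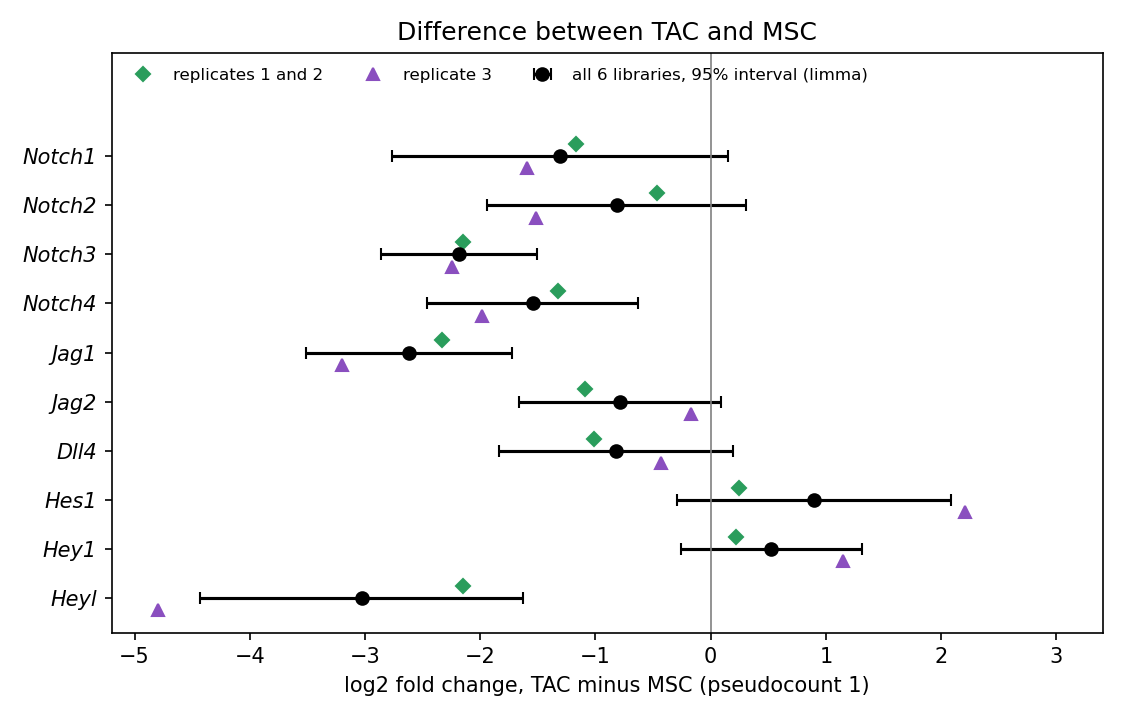
Log2 fold change, TAC minus MSC, of each Notch gene (horizontal axis, log2 of value plus 1). Black points and bars are the fit over all 6 libraries with its 95% interval, green diamonds the difference within replicates 1 and 2, and purple triangles that within replicate 3; the intervals of Notch3, Notch4, Jag1 and Heyl lie below 0.

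Of the 10 genes, 2 passed the adjusted threshold of 0.05 in limma, both higher in MSC, where 0.383% of all genes tested were called in that direction. At an unadjusted p under 0.05 there were 4, Notch3, Notch4, Jag1 and Heyl, again all higher in MSC, against 6.43% of all genes tested. In the direction of TAC there were 0 of 10, against 5.42%. Groups did not overlap for 7 genes, with MSC the higher group in 6 and TAC in 1, and such patterns held for 12.2% and 12.3% of all genes tested. With the replicate block the adjusted count was also 2, against 0.884% of all genes higher in MSC, and the unadjusted count was 7, against 10.9% of all genes higher in MSC in that fit. The 3 genes added were Notch1, Notch2 and Dll4 (for Dll4 the unadjusted p was 0.04799 and the adjusted p 0.241, both from limma with the block). Of the other counts, replicates 1 and 2 taken alone gave 8 genes past the adjusted threshold, all but Hes1 and Hey1, in a fit that passed 44.2% of all genes. Library kind as a batch term gave 5, where 11.8% of all genes passed. The name library kind is used here for replicate 3 against the others, and the labels do not give it. The median log2 fold change of the 10 genes was -1.06, beside 0.03 over all genes tested. By library set it was -1.13 and -1.56, beside -0.05 and 0.04. In all 18 alternatives each of the 10 genes kept its direction, although several of these fits cannot change the fold change.

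Levels were compared between genes after division by the length of the merged exons in GENCODE M21, 2.04 kb for Hes1 and up to 14.2 kb for Notch1. Exons of every annotated transcript were merged, so a length can exceed that of the transcript expressed. Orders and shares per kb depend on these lengths. In MSC the levels per kb were highest for Notch2, 16.6 ± 3.37, Jag1, 14.03 ± 1.51, and Notch3, 13.2 ± 2.32 (mean ± SD, n = 3). Notch2 was above Notch3 and Jag1 in each of the 3 MSC libraries, while Jag1 and Notch3 changed places between libraries. The next by mean was Heyl at 6.27 ± 2.64, a place that rested on 9.32 in MSC replicate 3. In the other MSC libraries Heyl, at 4.69 and 4.81, was below Notch1, at 5.29 and 5.77. By mean, Notch4, Hey1, Notch1, Dll4, Hes1 and Jag2 followed at 5.01 to 3.14, with neighbours in that order within their spread. In TAC the order was another one. Notch2, at 10.4 ± 5.20, Hey1, at 7.21 ± 1.799, and Hes1, at 7.005 ± 2.18, came first by mean, but their order depended on the library. In TAC replicates 1 and 2 Notch2, at 13.6 and 13.2, was above Hey1, at 5.79 and 6.602, and Hes1, at 5.61 and 5.88. In TAC replicate 3 Notch2, at 4.38, was below Hes1, at 9.52, and Hey1, at 9.23. Notch3 followed at 2.83 ± 0.577, then Jag1, Dll4, Notch1, Jag2 and Notch4 at 2.28 to 1.54 with neighbours within their spread, and Heyl was last at 0.663 ± 0.448.

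**Figure D3:**
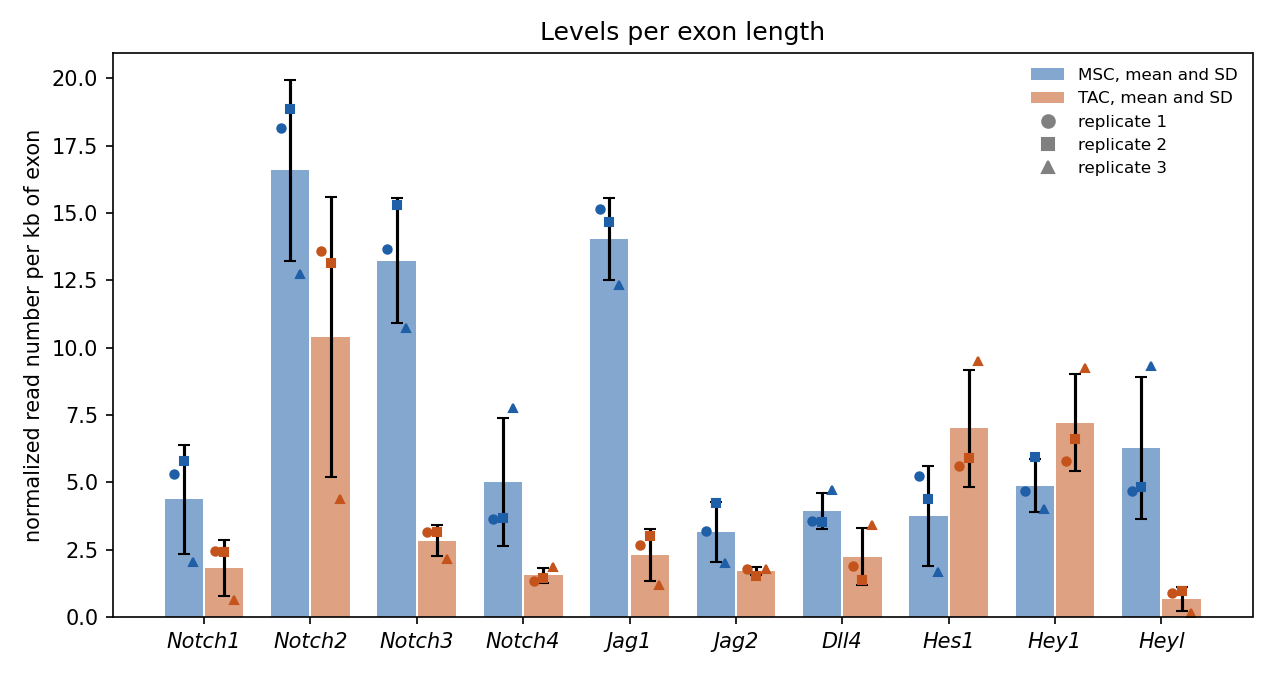
Normalized read number per kb of merged exon (vertical axis, linear from 0) of the 10 Notch genes in MSC (blue) and TAC (orange). Bars are means, error bars the SD of 3 libraries and symbols the libraries; Notch2, Jag1 and Notch3 stand highest in MSC, and Notch2, Hey1 and Hes1 in TAC.

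Within each role the composition also differed between the groups, as a description with no test. Of the summed per-kb level of the 4 receptors Notch3 made up 33.5%, 35.1% and 32.3% in the MSC libraries and 15.4%, 15.6% and 23.9% in the TAC libraries. The MSC shares were alike, and the groups did not overlap. Notch2 made up 44.6%, 43.3% and 38.3% in the MSC libraries and 66.3%, 65.2% and 48.5% in the TAC libraries, so it was the leading receptor in all 6 libraries, and the groups again did not overlap. Notch4 held 20.7% and 23.3% of the receptor level in replicate 3 of TAC and MSC and 6.43% to 8.91% in the other libraries, so its share followed library kind more than group. Among the 3 ligands the share of Jag1 was 69.2%, 65.4% and 64.7% in the MSC libraries and 42.2%, 50.7% and 18.6% in the TAC libraries. In TAC replicate 3 Dll4 was the leading ligand instead, at 53.6%. Among the 3 target genes the share of Heyl was 32.1%, 31.8% and 62.2% in the MSC libraries and 7.25%, 7.08% and 0.777% in the TAC libraries, and Hes1 and Hey1 together made up the rest.

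The rest of the pathway was read from a list of 48 genes by role, of which 45 were listed and 42 tested. In limma 0 of the 42 passed the adjusted threshold, and 4 had an unadjusted p under 0.05, 3 higher in MSC and 1 higher in TAC. These are 7.14% and 2.38% of the 42, near or below the 6.43% and 5.42% of all genes tested, and the genes named from the list are given as values. The median log2 fold change of the 42 was -0.16, beside 0.03 over all genes tested. With the replicate block 1 passed, Numbl, which is 2.38% of the list against 1.49% of all genes. With the batch term 3 passed, 7.14% against 11.8%, and replicates 1 and 2 alone gave 16, 38.1% against 44.2%. Numbl, a relative of the Notch inhibitor Numb, stood at 63.2, 65.2 and 48.9 in the MSC libraries against 26.6, 24.8 and 16.8 in the TAC libraries. The groups did not overlap, and the log2 fold change was -1.35 (SE 0.30, adjusted p 0.139, and 0.0491 with the block). Mib2, a ubiquitin ligase that acts on Notch ligands, stood at 51.2, 50.5 and 59.6 in the MSC libraries against 21.7, 22.6 and 31.6 in the TAC libraries. It too was higher in every MSC library, and the fitted log2 difference was -1.07 (SE 0.28, limma adjusted p 0.183). Numbl and Mib2 were the 2 of 13 tested genes of ubiquitination and endocytosis with an unadjusted p under 0.05.

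Hey2, a further HEY repressor, resembled Heyl in direction. It stood at 8.77, 6.78 and 2.88 in the MSC libraries against 1.58, 0.935 and 0.118 in the TAC libraries, so the groups did not overlap. Its log2 fold change was -1.91 (SE 0.61, limma unadjusted p 0.0163, adjusted p 0.282), and it had 30 to 431 estimated reads a library. Its window is shown because, with Hes5, it was among the pathway targets with a matched window that held the RBPJ core. The window (chr10:30842784-30843033, GRCm38.p6, minus strand) held it once, in capitals, on the strand opposite to the one printed, 207 bases before the start.
Hey2: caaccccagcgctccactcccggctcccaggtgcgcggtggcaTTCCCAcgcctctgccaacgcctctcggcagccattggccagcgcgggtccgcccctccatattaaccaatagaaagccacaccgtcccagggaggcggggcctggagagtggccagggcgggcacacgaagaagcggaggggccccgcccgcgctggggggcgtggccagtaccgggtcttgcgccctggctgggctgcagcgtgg
Hes5 had at most 11 estimated reads in any library and was not tested. Nrarp, a feedback inhibitor, had a log2 fold change of -0.44 (adjusted p 0.890) and no read in replicate 3 of either group.

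Dner, a ligand-like protein, was the gene higher in TAC at an unadjusted p under 0.05. Its TAC values were 1.97, 1.85 and 4.33, beside 0.293 and 0.724 in the MSC libraries of replicates 1 and 2 and no read in the last one, with an adjusted p of 0.347. Dll1 and the noncanonical ligand Dlk1 had log2 fold changes of 0.11 and -0.01. Rbpj, the DNA-binding partner of all 4 receptors, stood at 28.7, 26.6 and 22.6 in the MSC libraries against 30.2, 29.4 and 20.7 in the TAC libraries. Its log2 fold change was 0.03 with a 95% interval of -0.66 to 0.72 (adjusted p 0.986), so changes of more than about 0.7 in either direction lie outside that interval. Of the 8 nuclear genes, 10 cleavage genes and 5 glycosylation genes, 0 had an unadjusted p under 0.05, against 11.9% of all genes tested in either direction. The cleavage list, with the ADAM proteases and gamma-secretase subunits, had a median of -0.11 and ran from -0.82 for Psen2 to 0.80 for Aph1a. The glycosylation list, with the Fringe enzymes that tune ligand choice, ran from -1.05 for Mfng to -0.0039 for Poglut1, and Lfng was at -0.25.

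**Figure D4:**
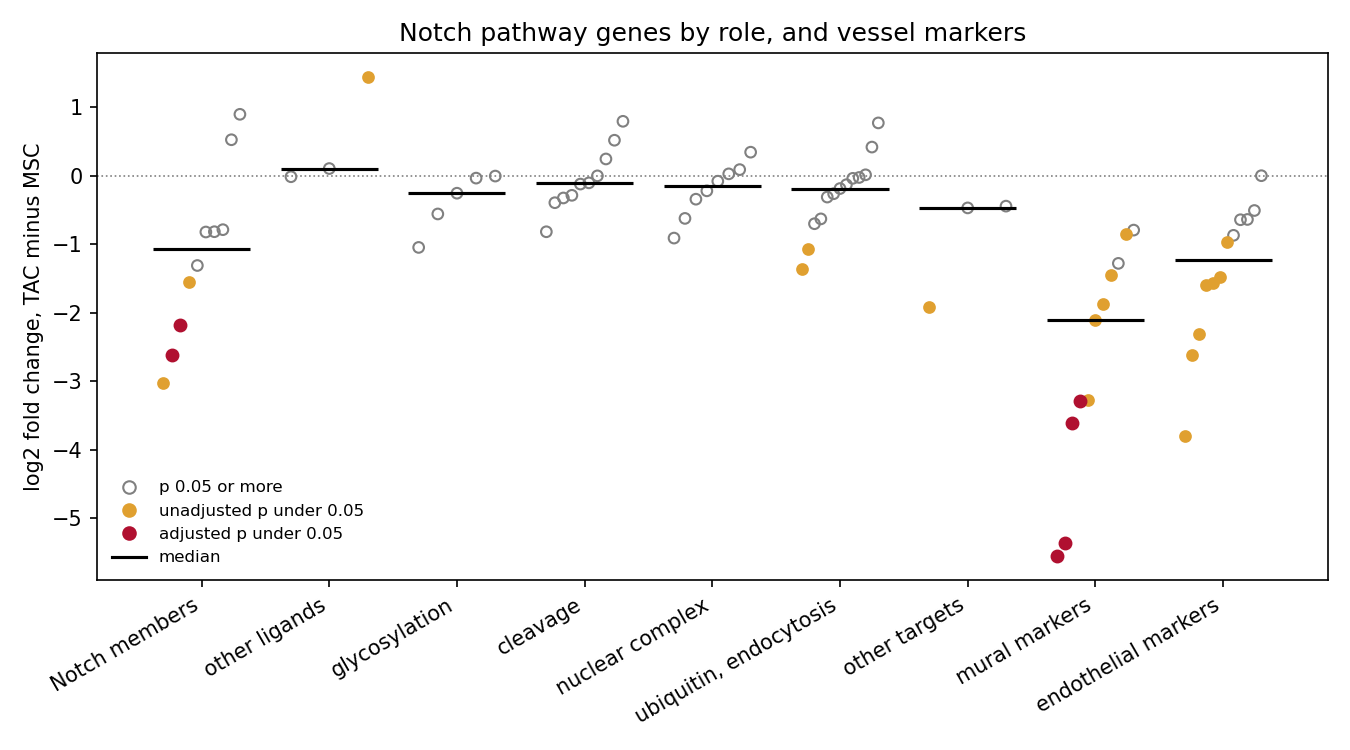
Log2 fold change, TAC minus MSC (vertical axis), of tested genes grouped by role in the Notch pathway, with mural and endothelial markers at the right. Each circle is a gene (open, unadjusted p of 0.05 or more; yellow, under 0.05; red, adjusted p under 0.05) and lines are medians; the cleavage and nuclear lists lie around 0, while Notch3, Jag1 and 4 mural markers are red, below -2.

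Mural markers, and most endothelial markers, lay on the MSC side, as did the 4 receptors, the 3 ligands and Heyl but not Hes1 and Hey1. In bulk samples fewer cells of a type and less RNA per cell cannot be told apart. Of 12 mural cell markers 11 were tested, and all 11 were higher in every MSC than in every TAC library, where 12.2% of all genes were. Acta2, Myh11, Tagln and Rgs5 passed the adjusted threshold, against 0.383% of all genes higher in MSC. With the replicate block 6 passed, against 0.884% of all genes higher in MSC. Cspg4, Mcam and Lmod1 were added there, and Acta2 lost its call (limma adjusted p 0.0701). The summed level of the 12 was 979 to 1742 in MSC and 196 to 227 in TAC. In TAC replicate 3 Cnn1 and Lmod1 had no read and Acta2 had 2, while Rgs5, a pericyte marker, was 42.2 there. Des had no read in replicate 3 of both groups. Of 12 endothelial markers, all tested, 9 were higher in every MSC library and 0 in every TAC library, 0 passed the adjusted threshold and 7 had an unadjusted p under 0.05, all higher in MSC, against 12.2% of all genes for the first count and 6.43% for the last, while Kdr had a log2 fold change of 0.0015. With the replicate block 3 of the 12, Vwf, Sox17 and Cldn5, passed the adjusted threshold, against 0.884% of all genes higher in MSC. The summed level of the 12 endothelial markers was 337 to 417 in MSC and 132 to 139 in TAC. None of the 12 was without a read in any library. The MSC sum was 4.32, 4.36 and 8.89 times the TAC sum in replicates 1, 2 and 3 for mural markers, and 2.44, 2.45 and 3.15 times for endothelial markers.

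The same ratios for the members can be set beside these. They were 4.304, 4.86 and 4.96 for Notch3, 5.65, 4.904 and 10.4 for Jag1, 2.75, 2.54 and 4.14 for Notch4 and 2.18, 2.39 and 3.25 for Notch1. For Notch2 they were 1.33, 1.43 and 2.903, for Jag2 1.79, 2.79 and 1.14 and for Dll4 1.88, 2.54 and 1.38. Jag2 and Dll4 had their lowest ratio in replicate 3, where both marker sums had their highest. Hes1 and Hey1 had ratios below 1 throughout, 0.9303, 0.745 and 0.176 and 0.811, 0.898 and 0.434. As a share of the summed mural level, Notch3 was 11.3%, 12.6% and 4.99% over the MSC libraries against 11.3%, 11.3% and 8.92% over the TAC libraries. These shares overlapped between the groups, unlike the Notch3 values themselves, and they depend on which markers carry the sum. Jag1 was 9.01%, 8.69% and 4.12% over the MSC libraries against 6.88%, 7.73% and 3.52% over the TAC libraries, also overlapping, with MSC the higher in each pair of the same number. Notch1 overlapped too, with TAC the higher in each such pair, and Notch2, Notch4, Jag2 and Dll4 were higher in every TAC library on this scale. Heyl was 2.45%, 2.505% and 2.74% over the MSC libraries against 2.01%, 2.16% and 0.383% over the TAC libraries, so it was higher in every MSC library on this scale too, by little in replicates 1 and 2. Against the summed endothelial level the order differed. Notch3 was 32.6%, 36.7% and 20.8% over the MSC libraries against 18.5%, 18.5% and 13.2% over the TAC libraries, and Jag1 was 26.03%, 25.3% and 17.2% over the MSC libraries against 11.2%, 12.7% and 5.22% over the TAC libraries. Both remained higher in every MSC library on this scale, as did Heyl. Notch4 was 8.62%, 8.74% and 14.96% over the MSC libraries against 7.67%, 8.45% and 11.4% over the TAC libraries, and Dll4 was 4.05%, 4.01% and 4.33% over the MSC libraries against 5.26%, 3.87% and 9.93% over the TAC libraries. Both overlapped, as did Notch1, Notch2 and Jag2. Within pairs of the same number Notch4 was higher in MSC and Notch2 higher in TAC in all 3, and Notch1, Jag2 and Dll4 were mixed. Hes1 and Hey1 were higher in every TAC library as a share of either sum. The part of vessel cells in the differences of the Notch genes was not tested.

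**Figure D5:**
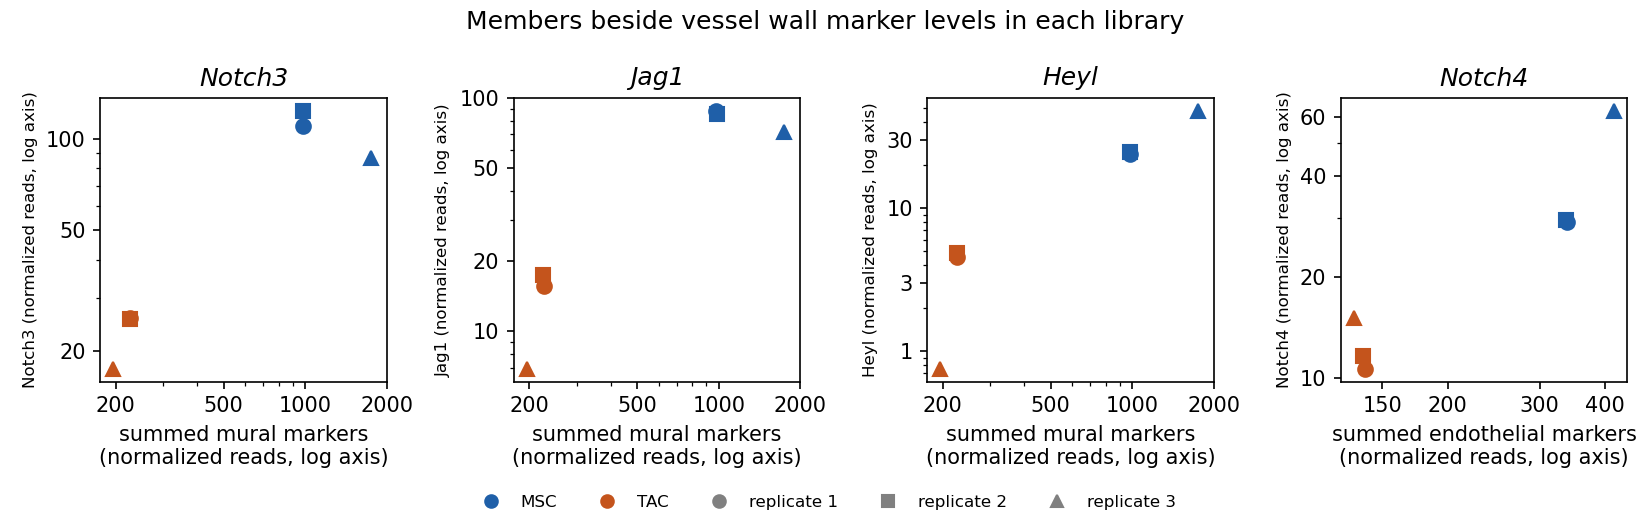
Normalized read number of Notch3, Jag1 and Heyl against the summed level of 12 mural markers, and of Notch4 against that of 12 endothelial markers, in each library (both axes log scale; blue MSC, orange TAC; symbols are replicates 1, 2 and 3). MSC libraries lie at the upper right and TAC libraries at the lower left, with mural sums of 979 to 1742 in MSC and 196 to 227 in TAC and endothelial sums of 337 to 417 in MSC and 132 to 139 in TAC.

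Markers of other cell types lay on either side. Epithelial markers summed to 299.7 to 3665 in MSC and 2190.0 to 3347 in TAC, with MSC replicate 3 lowest and 6 of 11 genes without a read there, and 5 of the 11 were higher in every TAC library, where 12.3% of all genes were. In replicates 1 and 2 the epithelial sum was higher in MSC, 3665 and 3603 against 3276 and 3347, and in replicate 3 it was higher in TAC. The enamel genes Amelx, Ambn and Enam made up most of this sum. All 11 epithelial genes had a positive fitted log2 fold change, with a median of 1.05 and of 0.58 within replicates 1 and 2. Of the 11, Epcam and Krt17 had an unadjusted p under 0.05 (limma adjusted p 0.346 and 0.396), both higher in TAC, against 5.42% of all genes. Macrophage markers summed to 60.1 to 117 in MSC and 34.7 to 102 in TAC, Schwann cell markers, higher in every MSC library, to 20.2 to 43.2 in MSC and 6.09 to 19.2 in TAC, and odontoblast markers to 532 to 5149.9 in MSC and 3311 to 4648 in TAC. Mesenchyme markers summed to 2939 to 11331 in MSC and 9109 to 13006 in TAC, and 6 proliferation markers to 128 to 216 in MSC and 319 to 992 in TAC, higher in every TAC library. Like the mural markers, all 4 Schwann cell genes tested had a negative log2 fold change, and that of Sox10 was -2.14 (limma unadjusted p of Sox10 0.00333, adjusted p 0.156). The odontoblast sum too was higher in MSC in replicates 1 and 2 and higher in TAC in replicate 3. Hes1 and Hey1 were higher in TAC in all 3 pairs of the same number, as was the proliferation sum, with 5 of its 6 genes higher in TAC at an unadjusted p under 0.05, against 5.42% of all genes. Cdk1 passed the adjusted threshold, against 0.422% of all genes in either direction, and with the replicate block 3 of the 6 passed it, against 1.49%. The part of the cells on either side in the values of the Notch genes was not tested.

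For each member the genes with the most similar pattern over the 6 samples were sought among 7834 other genes with a mean of at least 10, by Pearson correlation of the log2 values. With 6 samples in 2 groups and 2 library kinds such correlations are high for many genes, and they are descriptions. For Jag1 the nearest were Myh11 (0.999) and Col4a6 (0.998), where Myh11 encodes smooth muscle myosin and Col4a6 a basement membrane collagen, and 179 genes exceeded 0.95. For Notch3 they were Hif3a (0.998) and Olfr1372-ps1 (0.998), with 165 genes above 0.95, and for Heyl Kcnma1 (0.998) and Hspb1 (0.998). For Notch4 they were Tapbp (0.999) and Ddit4l (0.999), for Notch1 Tnks1bp1 (0.999) and Slit3 (0.999) and for Notch2 Slk (0.999) and Arid4a (0.999). For Hes1 they were Bcap31 (0.999) and C1qtnf6 (0.997), and for Hey1 Sh3gl1 (0.998) and Hibadh (0.994). For Jag2 they were Zfp512b (0.987) and Prdm11 (0.983), with 20 genes above 0.95, the fewest of the 10 members, and for Dll4 Tmem176a (0.995) and Smarcd3 (0.994).

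The use of strand in counting was not stated, so a value can include reads of an overlapping gene. Notch3 overlaps the antisense gene Gm17276, for which the first replicates gave 2.80 in MSC and 0.171 in TAC, the second 4.14 and 0.206, and replicate 3 no read. Dll4 overlaps Gm14207 at 0.719 to 4.11, Notch4 the pseudogene Gm20462, Notch2 the genes Gm42819 and Gm42820 on its own strand, and Notch1 the gene 0610009E02Rik at 0.0869 to 3.69. No other annotated gene overlapped Jag1, Hes1, Hey1 or Heyl.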

How the data were processed

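RNA of 3 MSC and 3 TAC samples was sequenced as single-end reads. Per the labels the authors used CASAVA 1.8.2, TopHat2 2.0.8 on mm10 and Partek; the counting tool, its annotation and its use of strand are not given in the sources used here. The methods of the study name RPKM, but in each library many genes of any length share the lowest value. The deposited values were therefore taken as a signal, a read number plus 1 divided by a size factor for each library. Dividing each value by the smallest one in the same library and subtracting 1 gave estimated reads. Of values between 0.5 and 20 reads, 63.4% to 74.3% per library lay within 0.02 of a whole number, so no count model was used.

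Tests used limma 3.58.1 in R 4.3.3 on log2(value + 1), with an empirical Bayes variance trend, over 15391 genes whose mean value was 1 or more. Fold changes are TAC minus MSC and tests were two-sided, with Benjamini-Hochberg adjustment over all genes tested; this scale understates changes of low genes. The planned test assumed RPKM and also suits the unit found. The members and lists (pathway roles, mural, endothelial, epithelial, macrophage, Schwann, odontoblast, mesenchyme and proliferation markers) were chosen with earlier results of these data known. Named genes are the members, genes on these lists, and the 2 genes most correlated with each member, without predicted genes. Ratios to marker sums and shares within roles were chosen after seeing the values. Same-numbered samples deviated together from their group means across genes (correlations 0.477, 0.466 and 0.517). So did MSC replicate 2 with TAC replicate 1 (0.480) and MSC replicate 1 with TAC replicate 2 (0.462). Among replicates 1 and 2 the numbers were therefore not told apart, and the correlations followed the split of replicate 3 from the others. That split is called library kind here, and the labels do not state what differs in it. The replicate numbers of the labels were also fitted as a block. As a check for a library deposited more than once, replicates 1 and 2 gave a mean chi-square per gene of 10.3 in MSC and 8.33 in TAC, where counting noise alone gives 1, and were counted as separate samples. Replicates 1 and 3 gave 1426 and 1777, so replicates 1 and 2 were far closer to each other, and whether they share an animal is not stated. The methods state 3 mice a group; whether each library was 1 mouse is not stated, so p-values measure the spread between these samples. With 3 against 3 an exact permutation test of a single value cannot go below 0.1 and none was run. The fit was tested on simulated data in which replicate 3 was set apart by depth only, unlike in these libraries. Exon lengths and overlaps came from GENCODE M21 (GRCm38) and promoter windows from RefSeq (GRCm38.p6).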

Additional observations from a re-analysis of the deposited data

How the results depend on the processing

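Directions were stable and calls were not. Each of the 10 Notch genes kept its direction in all 18 alternatives, 180 fits in total, while the count past the adjusted threshold, 2 as reported, was 1 with a pseudocount of 0.5, without the filter on low values and with robust empirical Bayes, 0 without a variance trend and with replicates 1 and 2 averaged as 1 sample (an alternative chosen after seeing the data), 5 with library kind as a batch term and 8 with replicates 1 and 2 only. Leaving out each sample in turn gave 0 to 2. It was 0 without MSC replicate 1 or 2 or TAC replicate 1 or 2, 1 without TAC replicate 3 and 2 without MSC replicate 3. The count at an unadjusted p under 0.05, 4 as reported, was 4 to 6 when a sample was left out, 7 with the replicate block, and 8 with library kind as a batch term and with replicates 1 and 2 only. Of all genes 11.9% passed that threshold as reported, 6.68% to 20.2% with a sample left out, and 20.4%, 29.6% and 51.9% in the other fits, in that order. The count of other Notch pathway genes past the adjusted threshold, 0 as reported, was 1 with the replicate block, 3 with the batch term, 16 with replicates 1 and 2 only and 0 whenever a single sample was left out. Over all 15391 genes, 65 passed as reported, 43 with a pseudocount of 0.5, 29 without a variance trend, 10 with averaged replicates, 229 with the replicate block, 1814 with the batch term and 6796 with replicates 1 and 2 only; leaving out a sample gave 0 to 292, with 0 without MSC replicate 1 or 2 or TAC replicate 1 or 2, 36 without TAC replicate 3 and 292 without MSC replicate 3. The replicate block changed no adjusted call of a Notch member, and added Notch1, Notch2 and Dll4 at the unadjusted threshold. Fits with fewer samples have fewer degrees of freedom, and the cause of the other shifts was not tested. With 3 libraries a group and replicate 3 apart in both, a difference that the test missed is not shown to be absent.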
